A study of Mus musculus with 2 samples.

Results

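The 10 genes described here encode the cytoplasmic relay of Toll-like receptor 4 (TLR4): the adaptors Myd88, Tirap, Ticam1 and Ticam2, the kinase family members Irak1, Irak2, Irak3 and Irak4, and the ubiquitin ligase family members Traf6 and Traf3. They were taken by symbol, each matched 1 gene entry, and they are 10 of 55536 annotated gene entries. Nucleoplasmic RNA, which is the RNA of the nucleus outside the insoluble chromatin, was sequenced after depletion of ribosomal RNA, from bone-marrow-derived macrophages (BMDM), primary cells grown out of mouse marrow. The cells were of the strain C57BL/6J and received Lipid A, the membrane anchor of bacterial lipopolysaccharide, at 100 ng/ml for 60 min. The data formed 1 group of 2 libraries, labelled as biological replicates with separate biosamples and the same donor label. The input RNA was 1 µg for replicate 1 and 500 ng for replicate 2. Sex and age were not collected, per the labels. No unstimulated library was analysed here, so none of the values is a response to Lipid A, and the spread between the libraries may be partly technical.

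TLR4 signals through paired adaptors. TIRAP brings MyD88 to the receptor at the plasma membrane, where MyD88 and the kinase IRAK4 assemble with IRAK1 or IRAK2 and activate TRAF6, which leads to the kinase TAK1 and to NF-κB. From endosomes, TRAM (the product of Ticam2) and TRIF (Ticam1) engage TRAF3, which leads to the kinase TBK1, to IRF3 and to type I interferon, while IRAK3 (also called IRAK-M) restrains the MyD88 branch in macrophages.

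Annotated genes held a total of 21115765 expected counts in replicate 1 and of 15607391 in replicate 2. An expected count is an estimated number of reads or fragments, and TPM, the length-corrected transcript abundance, is that count divided by effective length and scaled to a fixed sum, so TPM values can be compared between genes. TPM of protein-coding genes was lower in replicate 2, with a median log2 ratio of −0.42 over 8622 genes. All 8 macrophage markers checked reached 10 TPM in each library, with a summed TPM of 3481 and 3079. Of the 8 other marker lists, the 5 T and NK cell genes had 0 counts in both libraries, and the summed TPM of each other list lay between 0.03 and 38.7, most of the latter from the platelet factor Pf4. In such bulk RNA, fewer cells of a type and less RNA per cell cannot be told apart.

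All 10 genes reached 1 TPM in each library, and 6 of the 10 reached 10 TPM in each. Their median TPM was 14.4 in replicate 1 and 11.2 in replicate 2, beside 0.28 and 0.22 over 22015 nuclear-encoded protein-coding genes. Of the latter, 41.7% and 39.8% reached a TPM of 1, and 17.6% and 14.5% reached 10. Irak2 stood apart from the rest, and it alone made up 48.6% and 48.7% of the summed TPM of the 10 genes.

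**Figure D1:**
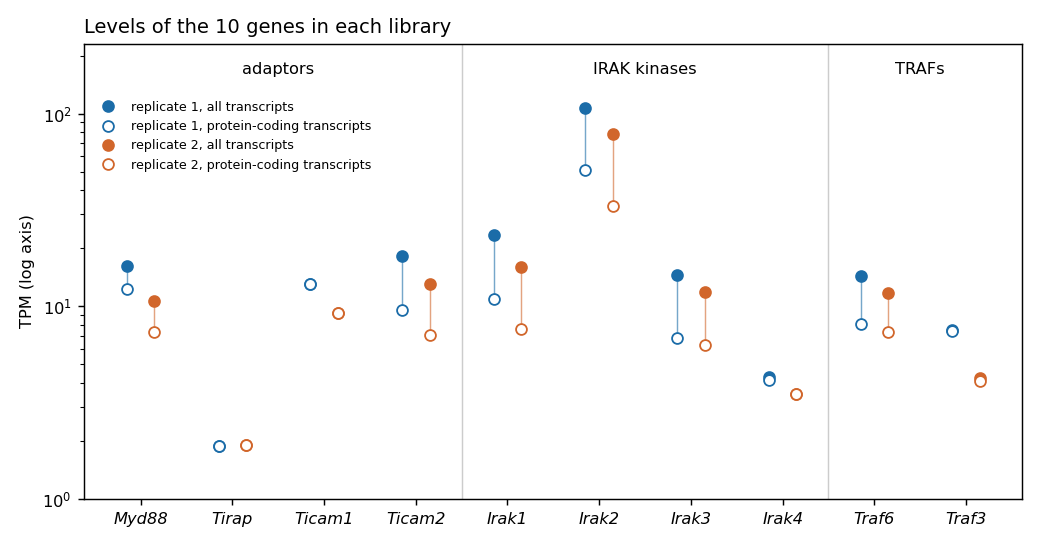
TPM on a log axis (y) of each of the 10 genes (x) in replicate 1 (blue) and replicate 2 (orange), with filled points for all annotated transcripts and open points for protein-coding transcripts alone. Irak2 is highest at 107 and 78.1, Tirap is lowest at 1.88 and 1.90, and the gap between filled and open points is the part of each gene on other transcript types.

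Among the adaptors, Myd88 (mm10 chr9:119335934-119341411, minus strand), the adaptor shared by most Toll-like and interleukin-1 receptors, was at 16.2 TPM in replicate 1 and 10.7 in replicate 2 (13.4 ± 3.96, SD, n = 2), from 743 and 469 expected counts. Ticam1 (chr17:56269319-56276786, minus strand), which encodes TRIF, was at 13.1 and 9.18 TPM (11.2 ± 2.79, SD, n = 2), from 891 and 592 counts. Ticam2 (chromosome 18, minus strand), the bridge between TLR4 and TRIF, was at 18.2 and 13.1 TPM (15.6 ± 3.62, SD, n = 2), from 1308 and 905 counts. These 3 adaptors therefore lay within a narrow band, and each was higher in replicate 1 on the TPM scale. Tirap (chr9:35184551-35200291, minus strand), the sorting adaptor for MyD88, was at 1.88 and 1.90 TPM (1.89 ± 0.0141, SD, n = 2), from 140 and 122 counts. It was the lowest of the 10 genes in both libraries, and the only one whose TPM was not lower in replicate 2. The order of the adaptors, Ticam2 above Myd88 above Ticam1 above Tirap, was the same in both libraries.

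The bridging adaptor exceeded its partner: Ticam2 minus Ticam1, as log2(TPM + 1), was 0.45 ± 0.02 (SD, n = 2), a TPM ratio of 1.38 in replicate 1 and 1.42 in replicate 2. Ticam1 was below Myd88 by a smaller margin, with a difference of −0.24 ± 0.07 (SD, n = 2). Both differences changed sign when only protein-coding transcripts were summed, to −0.38 for Ticam2 minus Ticam1 and 0.18 for Ticam1 minus Myd88. Ticam1 has a single annotated transcript, which is protein-coding, whereas part of Ticam2 and Myd88 lay on other transcript types. Tirap was below Myd88 by far more, with a difference of −2.29 ± 0.41 (SD, n = 2) and a TPM ratio of 0.116 and 0.178.

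The IRAK family held both the highest gene of the set and one of the lowest. Irak2 (chr6:113638467-113695026, plus strand), whose product signals downstream of IRAK4, was at 107 TPM in replicate 1 and 78.1 in replicate 2 (92.5 ± 20.4, SD, n = 2), from 4509 and 2861 expected counts. It ranked 416 and 408 among the 22015 protein-coding genes, and it held 71.7% and 71.3% of the summed TPM of the 4 family members. Irak1 (chrX:74013914-74023918, minus strand), the related kinase that is recruited to the same complex, was at 23.3 and 16.0 TPM (19.7 ± 5.15, SD, n = 2), from 1158 and 773 counts. Irak3 (chr10:120141648-120202130, minus strand), the inhibitory member, was at 14.5 and 11.9 TPM (13.2 ± 1.85, SD, n = 2), from 645 and 521 counts. The receptor-proximal kinase gene, Irak4 (chr15:94543643-94581815, plus strand), was at 4.30 and 3.52 TPM (3.91 ± 0.552, SD, n = 2), from 300 and 243 counts. The libraries thus placed the family in the same order, Irak2, Irak1, Irak3 and Irak4.

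Against Irak4, the kinase that acts first in the complex, each of the other members was higher. As log2(TPM + 1), Irak2 exceeded it by 4.24 ± 0.15 (SD, n = 2), a TPM ratio of 24.9 and 22.2. Irak1 exceeded it by 2.06 ± 0.20 (SD, n = 2), a ratio of 5.42 and 4.55. Irak3 exceeded it by 1.53 ± 0.03 (SD, n = 2), a ratio of 3.38 and 3.39. Each difference was larger than its SD. With protein-coding transcripts alone the differences were smaller, at 3.13 for Irak2, 1.08 for Irak1 and 0.65 for Irak3, with the same sign. RNA levels in the nucleus need not follow those of protein, which was not measured here.

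Of the ubiquitin ligase genes, Traf6 (chr2:101678429-101701669, plus strand), which acts in the MyD88 branch, was at 14.3 and 11.7 TPM (13.0 ± 1.83, SD, n = 2), from 1366 and 1141 expected counts. Traf3 (chr12:111166370-111267153, plus strand), which acts in the TRIF branch, was at 7.49 and 4.26 TPM (5.88 ± 2.28, SD, n = 2), from 851 and 476 counts. Traf3 was the lower of the pair in both libraries, with a difference in log2(TPM + 1) of −1.06 ± 0.30 (SD, n = 2). The gap depended on how transcripts were counted: it was −0.41 ± 0.42 (SD, n = 2) with protein-coding transcripts alone, and −0.14 ± 0.28 (SD, n = 2) in the second transcript table, in both cases within the SD.

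Ordered by mean log2(TPM + 1), the 10 genes ran Irak2, Irak1, Ticam2, Myd88, Irak3, Traf6, Ticam1, Traf3, Irak4 and Tirap. The step from Irak2 to Irak1 was 2.18 ± 0.05 (SD, n = 2), the widest of the 9 steps between neighbours. The next widest were the step from Ticam1 to Traf3, at 0.84 ± 0.15, and that from Irak4 to Tirap, at 0.76 ± 0.17. Myd88 and Irak3 did not differ beyond their spread, with a step of 0.000667 ± 0.21, and their order was opposite in the libraries. The other 8 steps kept their direction from library to library and exceeded their SD. An SD of 2 values does not cover counting error, so small steps are not thereby resolved. The step from Irak3 to Traf6 was 0.025 ± 0.0011, and the authors' deposited TPM intervals overlapped. These were 12.6 to 15.8 for Irak3 and 12.6 to 14.9 for Traf6 in replicate 1. In replicate 2 they were 10.1 to 12.9 and 10.3 to 12.2. With only protein-coding transcripts summed, Ticam1 moved from place 7 to place 2 in both libraries, and Irak3 moved from places 5 and 4 to places 8 and 7, while Irak2 stayed first, Irak4 ninth and Tirap last. In the second transcript table these 3 kept their places, but Traf3 lay above Ticam1, at 6.44 and 5.23 TPM against 4.55 and 4.43. Ticam2 was at places 3 and 5 there, Irak3 at 4 and 3, and Traf6 at 7 and 4, so the middle of the order depended on the table.

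A gene's reads can fall on transcripts that are not annotated as protein-coding. Among these are retained-intron transcripts, which keep all or part of an intron in the RNA. Of the 10 genes, 8 have at least 1 transcript that is not annotated as protein-coding, and Tirap and Ticam1 have none. For Irak2, 52.4% of the gene's TPM in replicate 1 and 57.7% in replicate 2 lay on such transcripts. Its 3 retained-intron transcripts each hold only part of an intron. Irak1 had 53.1% and 52.5%, most of it on retained-intron transcripts. Irak3 had 53.0% and 47.3%. These 3 IRAK genes and Ticam2, with 47.6% and 45.7%, carried the largest shares of TPM. In Traf6 the share was 43.0% and 37.3%, all of it on 2 processed transcripts, as no retained-intron transcript is annotated for it. In Myd88 it was 24.5% and 30.6%. Irak4 and Traf3 were near 0, at 4.19% and 0% for Irak4 and at 0% and 3.53% for Traf3. The median of the 8 genes was 45.3% and 41.5%, beside 33.0% and 32.4% over 7263 protein-coding genes that have such a transcript and a TPM of at least 1, whose upper quartile was 51.8% and 53.1%. TPM gives short transcripts more weight than counts do: as a share of expected counts, no gene had more than 36.2% on such transcripts. On that scale Myd88 was highest, at 29.4% and 36.2%. Ticam2 had 29.1% and 27.4%. The 3 IRAK genes were lower, with 25.2% and 21.7% for Irak3, 24.1% and 23.7% for Irak1, and 18.6% and 20.7% for Irak2. By counts in the second transcript table, Irak2 was highest instead, at 38.7% and 40.5%, beside 31.9% and 35.3% for Myd88. By TPM, that table gave 9.69% and 9.62% for Irak4 and 16.3% and 13.8% for Traf3, so they were not near 0 there. The order of the genes thus depended on the scale and on the table. The median of the 8 genes by expected counts was 21.3% and 21.2%, beside 16.7% and 16.8% over the 7263 genes.

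**Figure D2:**
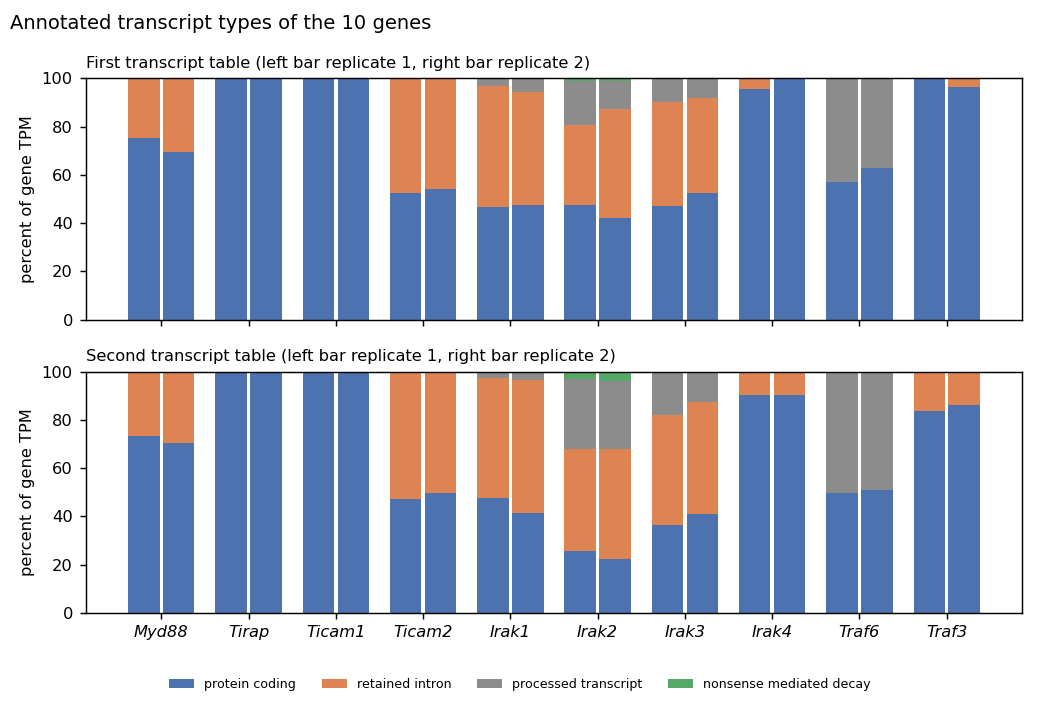
Share of each gene's TPM in percent (y) by annotated transcript type, for the 10 genes (x) in the first transcript table (upper panel) and the second (lower panel), with the left bar of each pair for replicate 1 and the right bar for replicate 2. In Irak2 the protein-coding part falls short of 50% in all 4 bars, Tirap and Ticam1 are fully protein-coding, and the part of Traf3 outside protein-coding transcripts is 16.3% and 13.8% in the second table.

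Irak2 has 9 annotated transcripts, of which 3 are protein-coding. The full-length transcript Irak2-201 was at 44.0 TPM in replicate 1 and 29.9 in replicate 2. Irak2-202 differs from it by lacking a coding exon of 144 bases, a multiple of 3, at chr6:113665703-113665846, and was at 6.92 and 3.09 TPM. The exon is shown because it is the sequence by which these coding isoforms are told apart, and a stretch of 45 bases across its end shows, in capitals, the intron's GT that is kept in the retained-intron transcript Irak2-208. Both are from the mm10 plus strand, and the latter spans chr6:113665832-113665876.
Irak2 exon in Irak2-201 and not in Irak2-202: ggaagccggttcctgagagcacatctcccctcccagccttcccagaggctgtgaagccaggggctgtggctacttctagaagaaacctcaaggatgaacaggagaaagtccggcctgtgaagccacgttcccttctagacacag
Irak2-208 exon end and kept intron: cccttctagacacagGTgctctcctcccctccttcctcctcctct
Of the expected counts on these coding isoforms, Irak2-202 held 12.7% in replicate 1 and 8.72% in replicate 2. In the second transcript table it held 9.04% and 6.01%. The form with the exon thus predominated in both libraries and both tables. Irak2-208 itself was at 20.1 and 9.38 TPM, with 631 bases in all. Its last exon ends within that intron, at chr6:113666009, so only the first part of the intron is kept.

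Among the shorter Irak2 transcripts, the libraries differed in opposite directions. Irak2-207, a retained-intron transcript of 573 bases at the 3′ end, was at 5.96 TPM in replicate 1 and 19.4 in replicate 2, and the authors' deposited intervals for it, 2.12 to 9.65 and 13.5 to 23.2, did not overlap. The processed transcript Irak2-206 went the other way, at 14.1 and 5.16 TPM. Its second-table values, 15.5 and 12.2 TPM, had the same direction with a smaller gap. In the second table Irak2-207 had 161 and 203 estimated counts, a smaller gap than the 53.4 and 161 of the first. The authors' intervals cover the assignment of reads to transcripts within a library, and their level is not given in the sources used here.

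**Figure D3:**
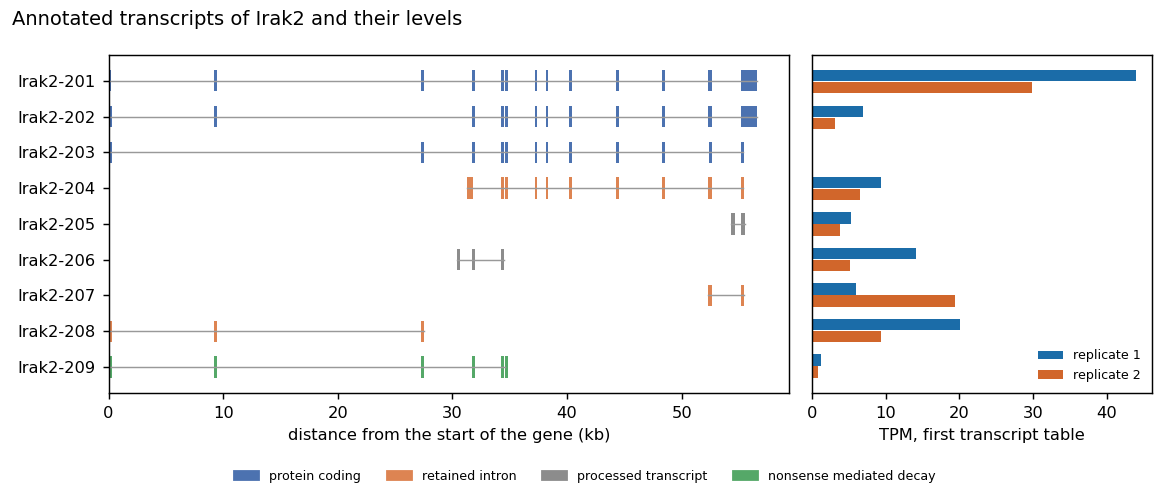
Left, exons (boxes) of the 9 annotated Irak2 transcripts by distance from the start of the gene in kb, coloured by transcript type; right, TPM of each in replicate 1 (blue) and replicate 2 (orange). Irak2-201 is highest at 44.0 and 29.9, and Irak2-207 is the transcript that is higher in replicate 2 by the widest margin, at 19.4 against 5.96.

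Irak1 has 22 annotated transcripts, 14 of them protein-coding, and its 2 most abundant coding forms differ by 3 bases. Irak1-206 has an exon that begins 3 bases earlier in transcript order than that of Irak1-204, which lengthens its coding sequence from 2130 to 2133 bases. The junctions are shown because these few bases alone separate the coding sequences, with the added bases in capitals, on the mm10 minus strand of chromosome X.
Irak1-206: ccttcctccaccaagCAGtcaagcccagag
Irak1-204: ccttcctccaccaagtcaagcccagagagc
Irak1-206 held 53.2% of the expected counts on the pair in replicate 1 and 23.5% in replicate 2. In the second table it held 48.6% and 10.1%. The share was lower in replicate 2 in both tables. The authors' posterior SD of the Irak1-206 count was 114 and 79.4, beside counts of 440 and 133, so the split within each library was itself imprecise.

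Irak3 and Irak4 each have 2 protein-coding transcripts. For the shorter Irak3-205 the expected count was 0 in replicate 1 and 145 in replicate 2, beside 482 and 263 for Irak3-201. In the second table its estimated counts were 114 and 190. The value of 0 was thus not found in the second table. Irak4-201 and Irak4-202 end in different last exons, shown here because they give the kinase different carboxyl ends: the capitals mark the coding bases of the last exon, 30 bases at chr15:94567014-94567043 and 12 bases at chr15:94579888-94579899, after the last 15 bases of the shared exon.
Irak4-201: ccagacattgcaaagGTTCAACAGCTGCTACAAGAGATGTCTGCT
Irak4-202: ccagacattgcaaagGACCTTTCGGTT
Irak4-202 held 58.8% and 63.7% of the expected counts on the pair. In the second table it held 47.4% and 51.9%. The last exon of Irak4-202 lies where Irak4 overlaps Twf1 on the opposite strand, over 3865 bases, and Twf1 had 928 and 874 expected counts. Reads of the overlap cannot be told apart without a known strand setting, which is not given in the sources used here.

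Myd88 and Traf3 also show forms that differ by a defined stretch. Myd88-201, the full coding transcript, was at 12.3 and 7.39 TPM, and Myd88-203, which keeps an intron of 160 bases and another of 389 bases, was at 3.98 and 3.26. The shorter intron, chr9:119337846-119338005 on the minus strand, is shown because it marks the retained form, with its splice-site bases in capitals.
Myd88-203 kept intron: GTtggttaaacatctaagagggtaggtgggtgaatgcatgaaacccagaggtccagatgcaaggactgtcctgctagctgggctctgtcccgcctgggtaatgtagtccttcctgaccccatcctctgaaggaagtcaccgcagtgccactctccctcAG
Myd88-203 was thus present in both libraries at a fraction of the coding form. Traf3-201 contains a coding exon of 75 bases, a multiple of 3, at chr12:111251130-111251204 on the plus strand, which Traf3-202 and Traf3-203 lack, and it is shown because it separates the long coding isoforms.
Traf3 exon in Traf3-201 and not in Traf3-202 or Traf3-203: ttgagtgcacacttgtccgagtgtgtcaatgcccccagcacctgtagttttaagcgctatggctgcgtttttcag
Traf3-201 was at 4.68 and 2.88 TPM. Of the expected counts on the 3 forms, those without the exon held 5.01% in replicate 1, all on Traf3-203, and 0% in replicate 2. In the second table they held 22.7% and 6.89%. The form with the exon thus predominated in both tables, by different margins. Traf3-204, a short coding transcript of 645 bases, held 56.4% and 61.1% of the gene's TPM in the second table, and was at 2.55 and 1.22 TPM in the first.

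After scaling for library size and composition (TMM), the 10 genes differed little between libraries, and 0 of the 10 passed a 2-fold ratio, beside 1.18% of the 10088 genes tested (0.506% higher in replicate 2 and 0.674% higher in replicate 1). The median size of the log2 ratio was 0.18 for the 10 genes and 0.18 for all genes tested. Traf3 had the largest, with a log2 ratio of replicate 2 to replicate 1 of −0.34 (95% counting interval −0.51 to −0.18), and 22.8% of all genes tested had one at least as large. Tirap had the highest, at 0.30 (−0.07 to 0.66), and Irak2, the most deeply counted, the narrowest interval, at −0.16 (−0.23 to −0.09). The interval left out 0 for 5 of the 10 genes, beside 42.8% of all genes tested. Of these 5, Myd88, Irak2 and Traf3 were lower in replicate 2, as were 22% of all genes tested, and Irak3 and Traf6 were higher, as were 20.8%. The ratios compare 2 libraries and carry no p-value, and the intervals cover counting error only.

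**Figure D4:**
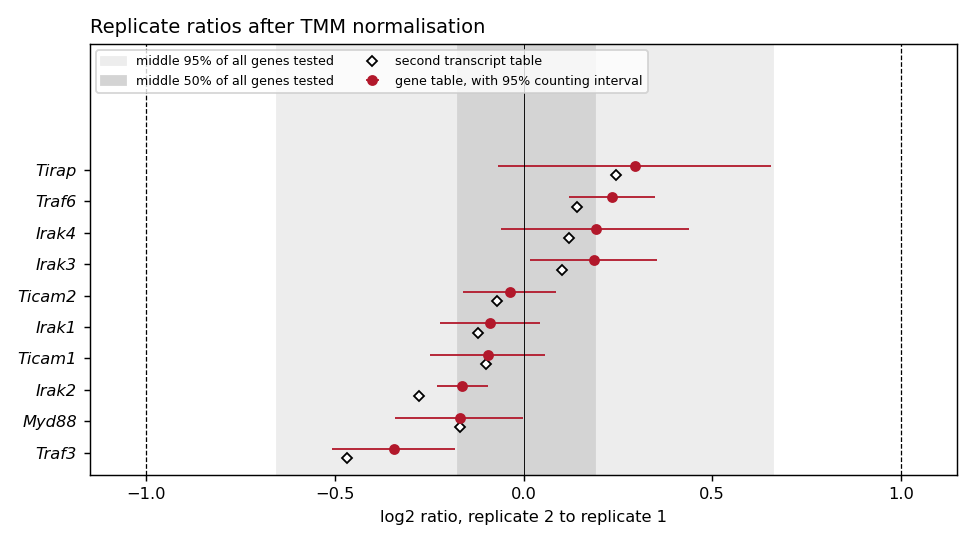
Log2 ratio of replicate 2 to replicate 1 (x) after TMM normalisation for each gene (y), with points and bars for the gene table and its 95% counting interval, diamonds for the second transcript table, grey bands for the middle 50% and 95% of all genes tested, and dashed lines at 2-fold. The points run from −0.34 for Traf3 to 0.30 for Tirap, and each diamond lies on the same side of 0 as its point.

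Tirap differed most between the tables. It had 140 and 122 expected counts in the gene table and 417 and 446 estimated counts in the second transcript table, of which the longest form, Tirap-201, held 401 and 430. Relative to all counts of a library, the second table gave 2.10 and 2.11 times the level of the first, where the median of 8658 protein-coding genes was 0.939 and 0.951, and 3.53% and 3.82% of those genes had a ratio as high. The other 9 genes lay between 0.779 and 1.04. Tirap was nonetheless the lowest of the 10 genes in TPM in both tables. Tirap overlaps the antisense gene Gm39318, which had 4.51 and 0 expected counts, and, over 117 bases, Srpr, which had 713 and 595, and their part in the difference was not tested.

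In the annotation 8 of the 10 genes overlap another gene, 6 of them on the opposite strand, and Ticam1 and Traf6 overlap none. The share of all genes that overlap another was not computed. Acaa1a, opposite the first exon of Myd88, had 768 and 421 expected counts. Tmed7, on the same strand as Ticam2 over 14299 bases, had 1749 and 1755. Within Irak2, the opposite-strand gene Gm43963 had 1017 and 747 counts, the antisense gene Gm43964 had 16 and 2 (218 and 126 in the second table), and the same-strand gene Gm43912 had 123 and 83. How far reads of these neighbours bear on the genes they overlap was not tested. Tmbim4, opposite Irak3, had 427 and 323 counts, and the antisense gene Gm47009 had 14 and 5 (34 and 34 in the second table). The gene 4930595D18Rik, opposite Traf3, had 1 and 0 counts in the gene table but 158 and 168 in the second table. Slc22a14, Mir5132 and Mir718 were listed at 0 in both libraries.

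Promoter windows of 300 bases, from 250 before each start annotated in RefSeq (GRCm38.p6), were used for 9 of the 10 genes, in 12 windows. Ticam2 was left out of this search, so its promoter was not examined. Windows were searched on both strands for 7 motifs. A gene was counted if any of its windows held a match, and some genes have more than 1 window. The shares beside these counts are of single windows, so the 2 are not like for like. The NF-κB consensus occurred in 1 gene, Traf3, beside 4.51% of all 32851 windows searched. The interferon-response (IRF) pair occurred in Myd88 (3.44% of all windows), overlapping a STAT motif TTCNNNGAA (8.3%). Myd88 also held the TATA motif TATAAA (13.6%), but on the opposite strand, read as TTTATA, at −164 from the start. The AP-1 motif TGANTCA (7.81%) and the CRE motif TGACGTCA (1.79%) occurred in none of the 9. The GC box GGGCGG occurred in all 9, beside 35.7% of all windows. Irak2, the highest gene, held only the GC box. The stretches with the NF-κB match of Traf3 and the overlapping IRF and STAT matches of Myd88 are shown, with these matches in capitals, at chr12:111166330-111166369 on the plus strand and chr9:119340019-119340098 on the minus strand. A match is a string of letters in the window and was not tested as a binding site.
Traf3: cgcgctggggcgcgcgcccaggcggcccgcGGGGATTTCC
Myd88: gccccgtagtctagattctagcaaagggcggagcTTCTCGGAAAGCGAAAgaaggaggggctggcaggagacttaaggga

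The 36 other genes of the pathway that were listed by role were mostly detected: 31 reached 1 TPM in each library and 22 reached 10 TPM. Of all nuclear-encoded protein-coding genes, 41.7% in replicate 1 and 39.8% in replicate 2 reached 1 TPM, and 17.6% and 14.5% reached 10. The median TPM of the 36 genes was 21.9 and 14.0. Of the 32 that could be tested, 0 passed a 2-fold replicate ratio, beside 1.18% of all 10088 genes tested. On the receptor side, 3 of 4 genes reached a TPM of 10. Cd14, which hands lipopolysaccharide to the receptor, was at 495 and 461 TPM. Ly96, the TLR4 partner MD-2, was at 12.6 and 15.0 TPM. Lbp, a serum protein made mainly in liver, was lowest at 0.05 and 0.21 TPM.

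Downstream of MyD88, all 9 genes reached a TPM of 1 and 6 reached 10. Ikbkb, a catalytic subunit of the IκB kinase, was at 70.8 and 47.4 TPM. Tab2, an adaptor of TAK1, was at 61.7 and 48.6 TPM. Tab1, another TAK1 partner, was lowest at 1.41 and 1.09 TPM. In the TRIF branch all 6 genes reached 1 and 5 reached 10. Ikbke, a kinase related to TBK1, was at 390 and 235 TPM. Tank, a scaffold for these kinases, was at 326 and 243 TPM. Both lay above Irak2, and the lowest of the list, the death-domain adaptor Tradd, was at 3.21 and 3.02 TPM.

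Of the 5 other TRAF genes, 4 reached a TPM of 1 and 2 reached 10. Traf1 was at 110 and 70.7 TPM, above both Traf6 and Traf3. Traf7 was at 23.1 and 14.6 TPM, and Traf4 was lowest at 0.22 and 0.27. Of the 12 ligases and brakes, 9 reached 1 and 6 reached 10. Tnfaip3, which encodes the ubiquitin-editing inhibitor A20, was at 840 and 658 TPM, the highest of the pathway genes listed. Peli1, a ubiquitin ligase that acts with the IRAKs, was at 124 and 105 TPM. Sarm1, a TIR-domain protein best known in neurons, had 1 and 0 expected counts.

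**Figure D5:**
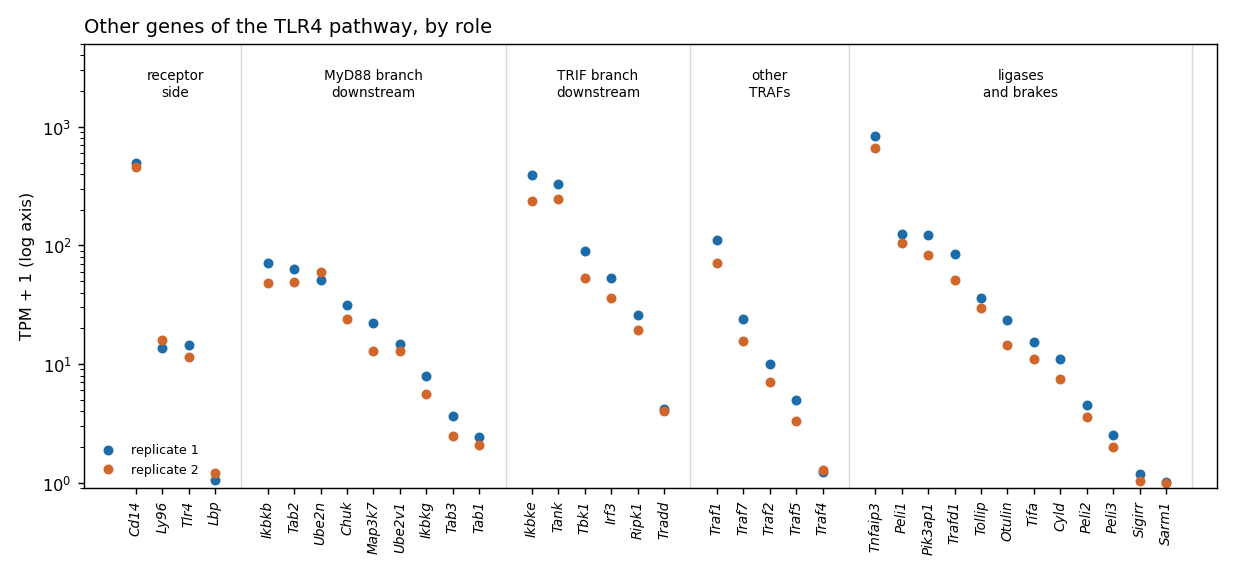
TPM + 1 on a log axis (y) of 36 other genes of the TLR4 pathway (x), grouped by role and ordered by mean TPM, in replicate 1 (blue) and replicate 2 (orange). Tnfaip3 at 840 and 658, Cd14 at 495 and 461, and Ikbke at 390 and 235 lie at the top, and Sarm1 lies at the bottom.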

How the data were processed

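Each library had 3 tables: one by gene and a pair by transcript, of which the first shares the gene table's layout. All used mm10 and GENCODE M21, per the file headers. The quantifiers, versions and strand setting used were not given in the sources used here. Expected counts were deposited by the authors as estimated, unnormalised numbers of reads or fragments. TPM values were scaled by the authors. Posterior SDs of counts and interval bounds of TPM were used as deposited by the authors, as a non-negative signal. Members and lists were chosen with earlier results of these data known. Entries that name no annotated gene, 0.662% and 0.232% of the totals, were left out.

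Levels are given as mean ± SD over 2 libraries, with differences taken within a library as log2(TPM + 1). With 1 group no test between groups was possible. Expected counts were rounded, and genes with a mean count of at least 50 were scaled by TMM (edgeR 4.0.16, in R 4.3.3). Ratios had 0.5 added to each count, and their 95% counting intervals are exact (Clopper-Pearson). The step was tested on simulated data for 9925 genes, with a single spread for all genes that was estimated from these libraries. There, 100% of changes of 2 on the log2 scale and 0.339% of unchanged genes passed 2-fold. The simulated shares need not hold for the data, where 1.18% of 10088 genes passed. Alternatives were a pseudocount of 0.1, the second table, TPM rescaled over protein-coding genes, library-scaled counts, DESeq2 1.42.0 size factors, total counts, a mean count minimum of 10 or none, and each library alone. Protein-coding transcripts alone were added after the data were seen. Named were the members, the genes that overlap them, and the 2 highest and the lowest genes of each pathway list. Pf4 was named after its value was seen.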

Additional observations from a re-analysis of the deposited data

How the results depend on the processing

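The number of the 10 genes past 2-fold between libraries was 0 under each alternative run, beside 1.18% of all genes tested in the main setting. On the log2(TPM + 1) scale the differences were 4.24 for Irak2 minus Irak4, 2.06 for Irak1 minus Irak4, 1.53 for Irak3 minus Irak4, −1.06 for Traf3 minus Traf6, −0.24 for Ticam1 minus Myd88, 0.45 for Ticam2 minus Ticam1 and −2.29 for Tirap minus Myd88. With a pseudocount of 0.1, those that moved beyond their SD became 4.52, 2.28, 1.73, 0.48 for Ticam2 minus Ticam1 and −2.74 for Tirap minus Myd88. In the second transcript table all 7 moved, to 4.43, 1.69, 1.36, −0.14, −0.34, 0.53 and −1.39. With TPM rescaled over protein-coding genes, Irak2, Irak3 and Ticam2 gave 4.48, 1.70 and 0.48. With library-scaled counts, which are not divided by length, the IRAK differences were 3.65, 1.74 and 1.05, Ticam2 minus Ticam1 was 0.57, and Ticam1 minus Myd88 reversed to 0.29. With protein-coding transcripts alone, chosen after seeing the data, they were 3.13, 1.08, 0.65, −0.41, 0.18 (reversed), −0.38 (reversed) and −1.87. The median level of the 10 genes, 3.77, became 2.87 in the second table, 5.88 rescaled, 5.30 in library-scaled counts and 3.17 with protein-coding transcripts, and that of the 36 pathway genes, 4.21, became 3.56, 6.34 and 5.55 under the first 3 of these. The median share outside protein-coding transcripts, 43.4%, became 50.4% in the second table, 21.3% as a share of expected counts and 30.3% of the second table's counts. With 2 libraries, leaving out a replicate gives the value of the other, so it is no check of stability. Over the other alternatives, 37 of 50 single-gene levels and 20 of 24 single-gene transcript shares moved beyond their spread. So did 1 of 50 replicate ratios (Irak2, −0.28 in the second table). None of the 50 ratios changed sign. Levels as log2(TPM + 1) and shares cannot be negative, so they had no sign to change. Rescaled TPM and library-scaled counts also change the scale of a level. Causes were not tested. No paired analysis was possible because the data form 1 group. Tirap had the fewest expected counts of the 10 genes, 140 and 122.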
